A study of Rattus norvegicus with 12 samples.

Results

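The genes of N-glycosylation, the attachment of a branched sugar chain to asparagines of proteins entering the secretory pathway, were followed in the ganglionic eminences of rat embryos that carry human mutant huntingtin. The set was a list of 42 gene symbols covering the supply of dolichol and of activated sugars, the building of the chain on dolichol, its transfer to protein and its first trimming. A member was measured where a probe set of the array had that symbol as its only annotated gene, and the probe set with the highest mean was used. By this rule 40 of the 42 genes were measured, out of 14506 genes in all; Alg13 and Stt3b were not analysed here. Pmm1 and Dpm3 had 2 probe sets each and the other 38 genes had 1.

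The 6 homozygous embryos carried BACHD, a bacterial artificial chromosome transgene that holds the whole human gene for mutant huntingtin, with 96 CAG repeats, and the 6 others were wild type. All were at embryonic day 14 and came from 3 time-bred transgenic dams dissected on 1 day, and each Affymetrix Rat Gene 1.0 ST array held RNA from the lateral and medial eminences of 1 embryo. The labels give neither the dam nor the sex of an embryo, nor the number of transgenic lines or the cells in which the transgene is active. The eminences form the floor of the embryonic forebrain and produce the neurons of the striatum and many interneurons of the cortex.

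In the pathway, dolichol, a long isoprenoid lipid of the endoplasmic reticulum, carries the growing sugar chain. Enzymes on the cytosolic face add sugars from nucleotide donors. After the chain is flipped, enzymes in the lumen add mannose and glucose from dolichol phosphate. The oligosaccharyltransferase moves the finished chain to the nascent protein, where glucosidases and a folding sensor trim and re-glucosylate it as the protein folds. Adhesion molecules, growth factor receptors and channels of the developing brain carry such chains, and inherited defects of many of these enzymes in humans cause congenital disorders of glycosylation that often affect the brain.

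Array medians lay between 7.69 and 7.76 on the log2 scale in homozygous and between 7.67 and 7.71 in wild-type embryos, and the median difference of all genes (homozygous minus wild type) was 0.02. Htt, by its only probe set, ran from 10.16 to 10.40 (median 10.25) in homozygous and from 9.77 to 10.07 (median 10.003) in wild-type embryos (adjusted p = 0.0408, limma), so the groups did not overlap. This probe set is annotated to the rat gene, and whether it also reads the human transgene was not tested. Two-sided adjusted p-values here come from limma with Benjamini-Hochberg adjustment over all 29214 probe sets, and a gene is said to have risen or fallen where this p was under 0.05. Wild types 1 and 2 stood apart: in 40.6% of all genes both lay above or both below the other 4 wild-type embryos. The same held for 20 of the 40 members (50%), with both above in 13 and both below in 7. Their dim probe sets were also lowest relative to their bright ones: the mean difference of dim and bright probe sets was between -3.85 and -3.75 in homozygous embryos, against -3.88 in each of wild types 1 and 2 and -3.83 to -3.77 in wild types 3 to 6. Values without these 2 arrays, a choice made after seeing the data, are therefore given beside those with all 12. Wild type 3, which was kept, was the lowest wild type in 15 of the 40 members, against 17.4% of all genes. The share for other pairs of wild-type arrays is not given here. Of the markers of the eminences, 6 of 8 were measured and none was dimmer than the median probe set. Of 38 markers of other classes, 32 were measured and 1, the neuronal Nefl, fell. All 3 measured markers of pallial neurons, Neurod6, Neurod2 and Slc17a7, stood lower without passing (-0.36, -0.25 and -0.25), and their mean level ran from 9.13 to 9.35 in homozygous and from 9.23 to 9.86 in wild-type arrays. Also without passing, the erythroid Hbb stood at -0.49 ± 0.147 and the radial glial Fabp7 at -0.41 ± 0.128. Other erythroid markers were at -0.01 (Hbe1) and -0.04 (Alas2), and other radial glial ones between 0.0031 (Vim) and 0.15 (Hes5). The endothelial Cdh5 stood at 0.15 ± 0.033 and Nkx2-1, of the medial eminence, at 0.16 ± 0.040, both without overlap between the groups. Other endothelial markers lay between 0.00046 (Kdr) and 0.08 (Pecam1), and other eminence markers between -0.18 (Dlx5) and 0.07 (Lhx6). Beside Nefl, the neuronal Map2 stood at 0.09, and Tubb3, Dcx and Stmn2 between -0.04 and -0.01. Of the choroid plexus, Ttr stood at 0.17 ± 0.058 without passing, Folr1 at 0.06 and Kcnj13 at 0.04, all dimmer than the median probe set. Markers of meninges and mesenchyme lay between -0.06 (Dcn) and 0.11 (Col1a1), and microglial ones between -0.06 (Cx3cr1) and 0.07 (Ptprc). The part of these markers in the results below was not tested.

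Homozygous embryos differed from wild type in 2 of the 40 members (5%). Dpm3, a subunit of the synthase of dolichol-phosphate mannose, rose by 14.3%, and Alg11, a mannosyltransferase of chain assembly, fell by 11.3%. Over the whole array 124 probe sets passed (0.424%), 66 higher (0.226%) and 58 lower (0.199%), and 0.469% of genes did so by 1 probe set each. The members were chosen with earlier results of these data known, so their share cannot be read as that of an independent list. The other 38 members did not pass. At an unadjusted p under 0.05 there were 11 members (27.5%), 3 higher and 8 lower (20%). Of all 14506 genes 15.1% were, 1332 higher and 860 lower (5.93%). Of probe sets 15.0% were (10.2% higher and 4.81% lower). Differences were small, between -0.17 and 0.19 on the log2 scale, with a median size of 0.05 that all genes shared (0.05). Below 0 stood 26 of 40 members (65%), against 38.6% of all genes, and the median member difference was -0.03. The members were brighter than most genes: 2 of 40 were dimmer than the median probe set, against 5924 of all 14506 genes. Of 51 other measured genes around the pathway, 0 were so dim, and 32 stood below 0 (62.7%). Without wild types 1 and 2, 5 members passed (12.5%, with 3 higher and 2 lower). Over the whole array 582 probe sets did (1.99%, with 1.25% higher and 0.746% lower), and 363 genes by 1 probe set each (2.50%). In that fit 23 of 40 members stood below 0 (57.5%), against 38.5% of all genes.

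**Figure D1:**
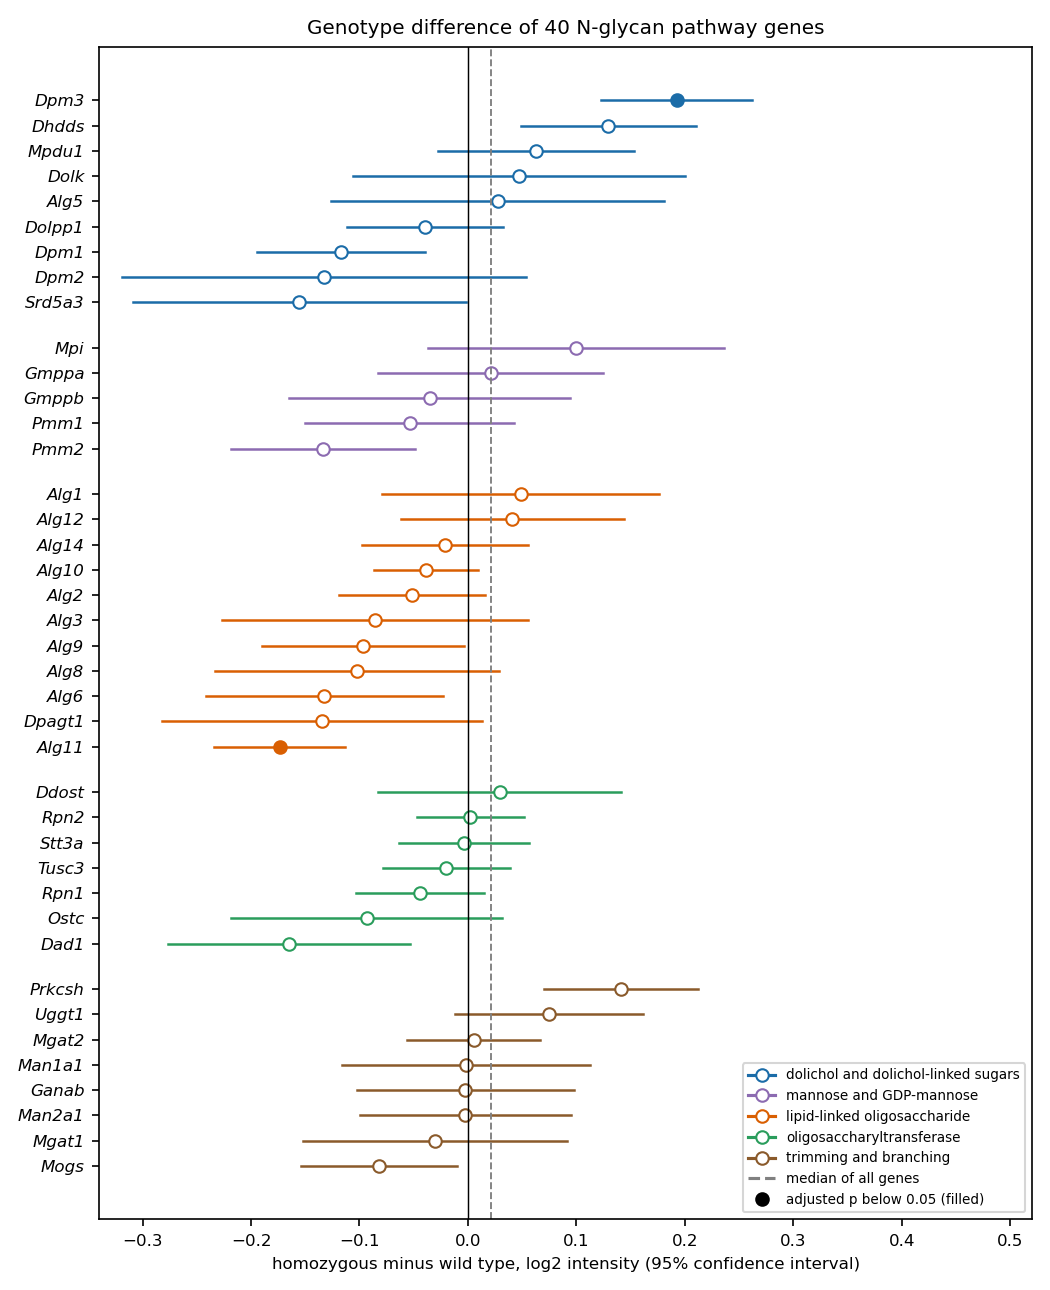
Homozygous minus wild-type log2 intensity of the 40 measured members, grouped by pathway step and sorted within it, with 95% confidence intervals from limma (n = 6 embryos per group). Filled points are the 2 members with an adjusted p under 0.05, Dpm3 at 0.19 and Alg11 at -0.17, and the dashed line is the median of all genes at 0.02.

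The dolichol step held 9 measured genes, of which Dpm3 rose and 8 did not pass. Dolichol-phosphate mannose synthase joins mannose to dolichol phosphate. In mammals Dpm1 is its catalytic subunit, and the small membrane proteins Dpm2 and Dpm3 hold the complex in the membrane. Dpm3 ran from 10.545 to 10.64 (median 10.58) in homozygous and from 10.28 to 10.46 (median 10.40) in wild-type embryos. All 6 homozygous values lay above all 6 wild-type values. The log2 difference was 0.19 ± 0.032 (SE, n = 6 per group; 95% confidence interval 0.12 to 0.26; adjusted p = 0.0273 in limma). The exact permutation p, two-sided, was 0.00216, the smallest that 6 against 6 can give. It follows from the lack of overlap, is not adjusted for the number of genes, and was the same for Dpm1 and Alg11. A second probe set of Dpm3 held identical values and adds no evidence. Without wild types 1 and 2, both below the other 4 wild types, the difference was 0.16 (adjusted p = 0.0124). Dpm3 passed in 11 of 22 other settings: among those where it did not, the adjusted p was 0.0885 with the replicate number as a block, 0.0775 without the intensity trend and 0.0721 with the dim-to-bright difference as a covariate.

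Dpm1 stood the other way, from 8.92 to 9.11 (median 9.05) in homozygous and from 9.13 to 9.21 (median 9.15) in wild-type embryos. The groups did not overlap, but the difference of -0.12 ± 0.036 did not pass over all probe sets (adjusted p = 0.163 in limma), nor without wild types 1 and 2 (-0.12). Non-overlapping groups were seen in 3 of 40 members (7.5%), Dpm3, Dpm1 and Alg11, against 1.86% of probe sets and 2.20% of genes. Dpm2 ran from 8.93 to 9.11 (median 9.04) in homozygous and from 8.93 to 9.54 (median 9.06) in wild-type embryos, where wild types 1 and 2 held 9.37 and 9.54 and the other 4 at most 9.06. Its difference of -0.13 ± 0.087 became 0.01 without those 2 arrays.

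Within each array, the log2 value of Dpm3 minus that of Dpm1 does not depend on the scaling of the array. It restates the opposite directions of these 2 genes, whose groups did not overlap, so its groups could not overlap either. It was 1.55 ± 0.0938 in homozygous and 1.24 ± 0.0826 in wild-type embryos (SD, n = 6 each). These pairs were set side by side after their values were seen, so no test is given. Dpm3 minus Dpm2 was 1.55 ± 0.0555 in homozygous and 1.23 ± 0.281 in wild-type embryos, with overlap through wild type 3 at 1.51. Dpm2 minus Dpm1 was -0.01 ± 0.101 in homozygous and 0.01 ± 0.240 in wild-type embryos. The wild-type spread of this last pair came with 0.20 and 0.40 in wild types 1 and 2.

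**Figure D2:**
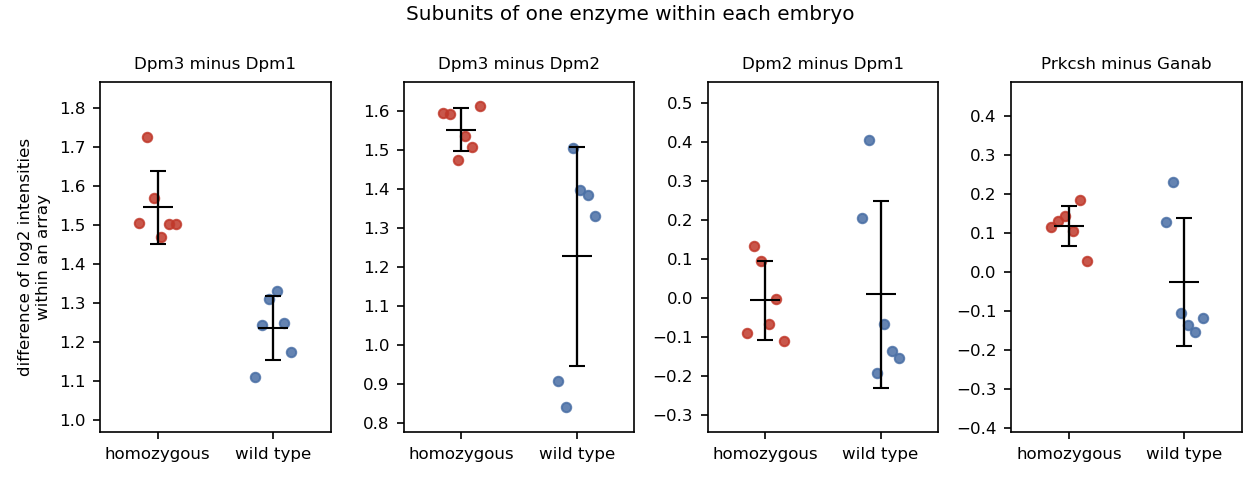
Difference of 2 subunits' log2 intensities within each array, for homozygous (left, red) and wild-type embryos (right, blue); points are embryos, and bars are the mean ± SD (n = 6 each). The separation of Dpm3 minus Dpm1 follows from the single genes, and wild types 1 and 2 lie below the other wild types in Dpm3 minus Dpm2 and above them in Dpm2 minus Dpm1 and Prkcsh minus Ganab.

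The promoters of these 2 subunits are shown because their genes stood apart in opposite directions. Each is the stretch of 250 bases before to 50 after the gene's start, from RefSeq on the rat assembly GRCr8, written 5′ to 3′ along the gene's strand with each CG pair in capitals. Dpm3 lies on the plus strand at chr2:176974040-176974339 and Dpm1 on the minus strand at chr3:177358349-177358648.
Dpm3: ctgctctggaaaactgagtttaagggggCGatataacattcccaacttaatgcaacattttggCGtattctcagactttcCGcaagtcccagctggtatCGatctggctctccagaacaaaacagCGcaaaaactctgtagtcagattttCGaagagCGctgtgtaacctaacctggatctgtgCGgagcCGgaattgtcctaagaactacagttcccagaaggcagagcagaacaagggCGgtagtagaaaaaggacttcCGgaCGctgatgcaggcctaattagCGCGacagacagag
Dpm1: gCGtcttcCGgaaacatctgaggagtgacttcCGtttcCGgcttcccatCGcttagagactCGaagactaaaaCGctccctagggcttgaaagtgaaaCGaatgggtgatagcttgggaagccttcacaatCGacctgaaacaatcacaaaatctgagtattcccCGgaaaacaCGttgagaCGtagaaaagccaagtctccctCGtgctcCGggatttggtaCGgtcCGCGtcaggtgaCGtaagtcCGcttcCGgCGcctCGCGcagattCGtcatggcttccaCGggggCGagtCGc
The Dpm3 window held 14 CG pairs and 48.7% G and C, and the Dpm1 window held 27 and 54.3%. RefSeq promoters were found for 38 of the 40 measured members, all but Alg11 and Tusc3. Their medians were 22.5 CG pairs and 59.5% G and C, against 16 and 58% in the promoters of 11968 measured genes. The endoplasmic reticulum stress element, CCAAT and then CCACG with any 9 bases between them, was sought on both strands and found in 0 of 38 member windows and in 0.125% of all 11968. The second such element, ATTGG and then CCACG with any 1 base between, was in 0 of 38 windows and in 0.109% of all. TGACGTGG, a core motif of the unfolded protein response, was in 0 of 38 windows and in 0.760% of all. The shorter CCAAT, which the first element contains and the second holds on its other strand, was in 15 of 38 (39.5%, against 38.3%). GCGCA and then GCGC with any 1 base between, the core of the NRF1 motif, was in 5 of 38 (13.2%, against 7.39%). Neither window shown held any of these motifs. In the same assembly Dpm3 lies between Krtcap2, itself a subunit of the oligosaccharyltransferase, and Slc50a1. Krtcap2, named for its place, ran from 10.61 to 10.76 in homozygous and from 10.44 to 11.01 in wild-type embryos, at -0.05 ± 0.082 (adjusted p = 0.810 in limma), and at 0.09 without wild types 1 and 2.

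The genes that make dolichol were mixed. Dhdds, a subunit of the prenyltransferase that lengthens the isoprenoid chain, ran from 9.96 to 10.04 (median 10.01) in homozygous and from 9.76 to 9.98 (median 9.90) in wild-type embryos. All 6 homozygous values were above the wild-type mean, and the groups overlapped in a narrow range. The difference of 0.13 ± 0.038 did not pass (adjusted p = 0.142 in limma), and was 0.08 without wild types 1 and 2. Srd5a3, a reductase on the route from polyprenol to dolichol, stood at -0.16 ± 0.072 (adjusted p = 0.327), and at -0.05 without those 2 arrays. Dolk, the dolichol kinase, stood at 0.05, and at -0.045 without those arrays. Dolpp1, which recycles dolichol pyrophosphate, stood at -0.04 with and -0.02 without them. Alg5, the synthase of dolichol-phosphate glucose, stood at 0.03, and at 0.14 without wild types 1 and 2. Mpdu1, needed for the use of both dolichol-linked sugars, stood at 0.06, and at 0.09 without them. The median of the step was 0.03, with 5 members above and 4 below 0.

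None of the 5 genes of mannose supply passed in limma, and 1, Pmm2, had an unadjusted p under 0.05. Pmm2, the main phosphomannomutase and the gene most often affected in human disorders of N-glycosylation, ran from 9.84 to 9.98 (median 9.90) in homozygous and from 9.93 to 10.13 (median 10.01) in wild-type embryos. Its 6 homozygous values lay below the wild-type mean, and the difference was -0.13 ± 0.040 (adjusted p = 0.150) with and -0.14 without wild types 1 and 2. Mpi, which links fructose phosphate to mannose phosphate, ran from 10.57 to 10.73 (median 10.64) in homozygous and from 10.34 to 10.76 (median 10.48) in wild-type embryos. Wild types 1 and 2, at 10.76 and 10.72, were above all other wild types, whose highest value was 10.50. Mpi did not pass with all arrays (0.10 ± 0.064, adjusted p = 0.471) and passed without those 2 (0.20 ± 0.040, adjusted p = 0.0283 in limma). Pmm1, the second phosphomannomutase, ran from 9.18 to 9.35 (median 9.22) in homozygous and from 9.196 to 9.43 (median 9.29) in wild-type embryos, at -0.05 ± 0.045 (adjusted p = 0.579), and at -0.09 without wild types 1 and 2; its other probe set read -0.09 with all arrays. Gmppa and Gmppb, the regulatory and catalytic subunits of the enzyme that makes GDP-mannose, stood at 0.02 and -0.04, and at 0.07 and -0.01 without wild types 1 and 2. Gmppb was dimmer than the median probe set.

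Chain assembly held 11 measured genes, 9 of them below 0, with a median of -0.09. Alg11 fell, and 10 did not pass. Alg11 adds the last mannoses that the chain receives on the cytosolic face. It ran from 10.20 to 10.26 (median 10.24) in homozygous and from 10.36 to 10.49 (median 10.40) in wild-type embryos. No homozygous value reached the lowest wild-type value, and the homozygous values spanned a range narrower than the gap between the groups. The difference was -0.17 ± 0.028 (95% confidence interval -0.23 to -0.11; adjusted p = 0.0273 in limma; exact permutation p = 0.00216, two-sided), and -0.19 without wild types 1 and 2 (adjusted p = 0.0104). The calls of Dpm3 and Alg11 both ended without homozygous 1, 2, 3, 4 or 5 or wild type 5 or 6, where each adjusted p lay between 0.0540 and 0.0791 with hardly changed differences. With arrays centred on their medians Alg11 stayed at -0.21 (adjusted p = 0.0130), and Dpm3 stood at 0.15 and did not pass (adjusted p = 0.0509).

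**Figure D3:**
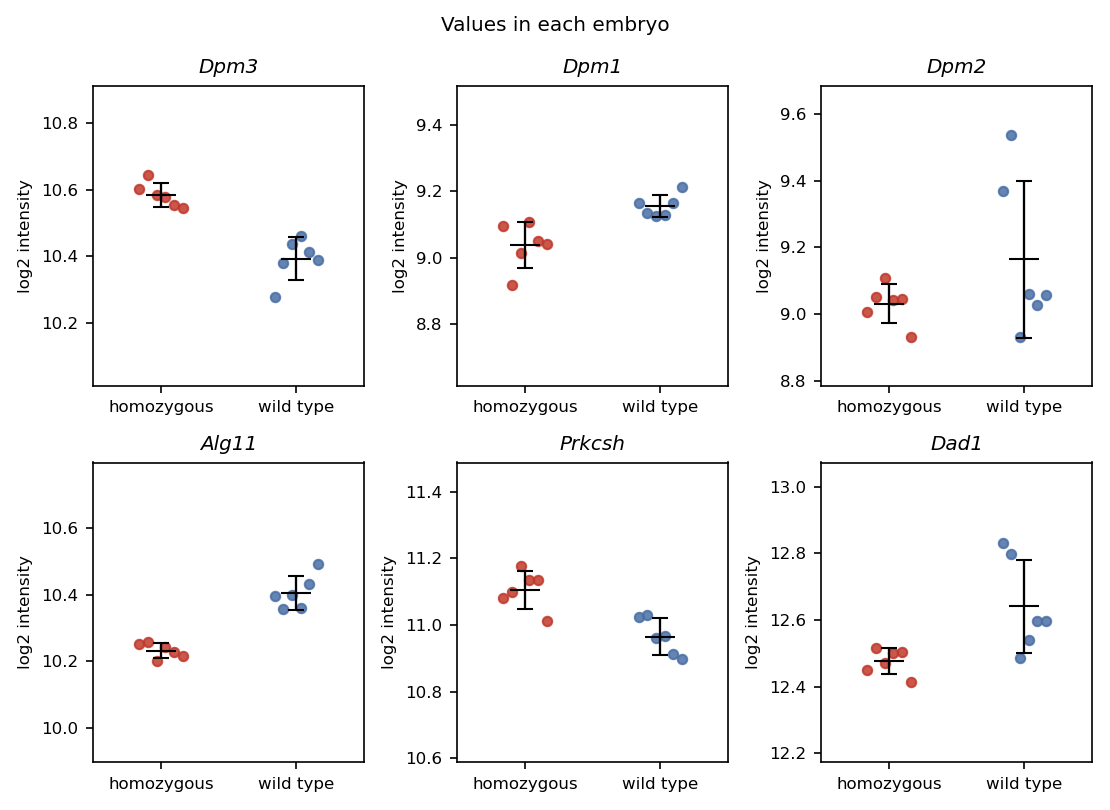
Log2 intensity in each embryo of the synthase subunits Dpm3, Dpm1 and Dpm2, of Alg11, of the glucosidase II subunit Prkcsh and of the oligosaccharyltransferase subunit Dad1; all panels span the same log2 range. Homozygous embryos are left in red and wild type right in blue, with the mean ± SD (n = 6 each): Dpm3, Dpm1 and Alg11 do not overlap between groups, and wild types 1 and 2 lie above the rest of their group in Dpm2, Dad1 and Prkcsh and below it in Dpm3.

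The cytosolic enzymes that act before or with Alg11 did not pass. Dpagt1, which starts the chain, stood at -0.13 ± 0.069 (adjusted p = 0.372), and at -0.02 without wild types 1 and 2, which held 11.16 and 11.21 against at most 10.90 in wild types 3 to 6. Alg14, partner of Alg13 in the addition of the next sugar, stood at -0.02. The mannosyltransferases Alg1 and Alg2 stood at 0.05 and -0.05, and at 0.11 and -0.05 without those 2 arrays. The luminal mannosyltransferases, which take mannose from the product of the Dpm synthase, stood at -0.09 (Alg3), -0.10 (Alg9) and 0.04 (Alg12), and without wild types 1 and 2 Alg3 stood at 0.02 and Alg12 at 0.09. Alg9 ran from 10.40 to 10.51 (median 10.46) in homozygous and from 10.41 to 10.70 (median 10.54) in wild-type embryos (adjusted p = 0.316 in limma), and stood at -0.04 without wild types 1 and 2.

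The glucosyltransferases that complete the chain, Alg6, Alg8 and Alg10, all stood below 0. Alg6 ran from 8.345 to 8.604 (median 8.43) in homozygous and from 8.48 to 8.66 (median 8.599) in wild-type embryos, at -0.13 ± 0.051 (adjusted p = 0.253 in limma). The groups overlapped through homozygous 1 and 2, at 8.51 and 8.604. Alg8 stood at -0.10 ± 0.061 and Alg10 at -0.04 ± 0.022. Without wild types 1 and 2, Alg6 stood at -0.10, Alg8 at -0.01 and Alg10 at -0.05, and the median of chain assembly moved to -0.02, with 7 of 11 members below 0. Alg11 was the member of this step that passed in both fits.

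**Figure D4:**
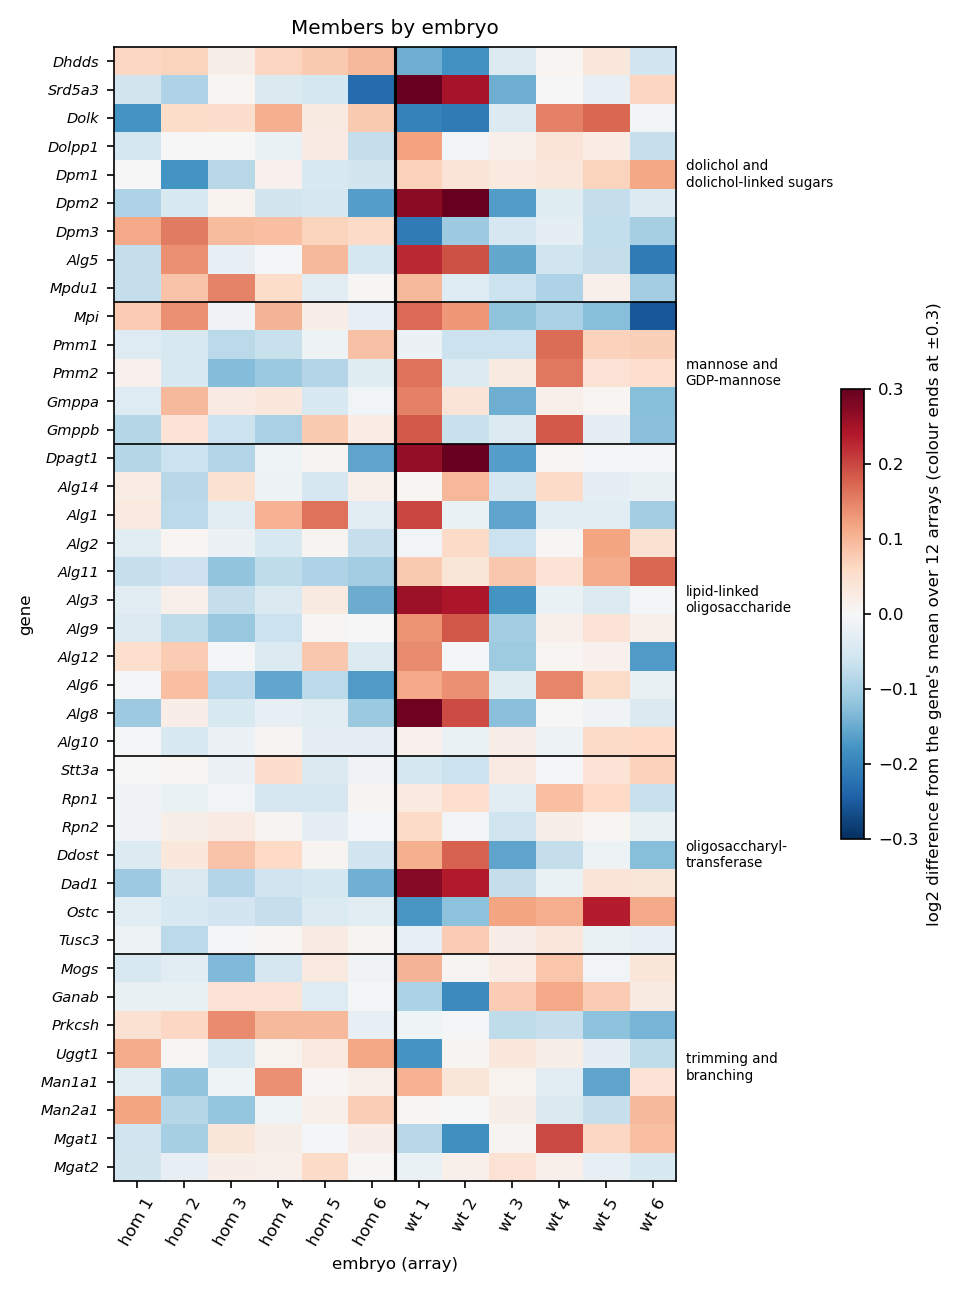
Deviation of each member's log2 intensity from its own mean over the 12 arrays, for homozygous embryos (left of the line) and wild types (right); genes run down the page by pathway step, and the colour scale ends at ±0.3. Dpm3 and Alg11 change colour at the line, and the columns of wild types 1 and 2 share strong colours in Srd5a3, Dpm2, Dpagt1, Alg3, Alg8 and Dad1.

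None of the 7 measured genes of the oligosaccharyltransferase passed in limma, and 1, Dad1, had an unadjusted p under 0.05. The median was -0.02 with 5 of 7 below 0. Dad1, a small subunit whose loss causes apoptosis in a hamster cell line, ran from 12.41 to 12.52 (median 12.49) in homozygous and from 12.49 to 12.83 (median 12.60) in wild-type embryos. The difference of -0.17 ± 0.052 (adjusted p = 0.173) became -0.08 without wild types 1 and 2, the highest of their group at 12.83 and 12.80. Ostc, a subunit of the complex that works at the translocon, ran from 10.88 to 10.91 (median 10.90) in homozygous and from 10.77 to 11.18 (median 11.06) in wild-type embryos. Here wild types 1 and 2 were the lowest, at 10.77 and 10.82, and the other 4 lay at 11.05 or more, above every homozygous value. Ostc did not pass with all arrays (-0.09 ± 0.058, adjusted p = 0.458) and passed without those 2 (-0.19 ± 0.027, adjusted p = 0.00794 in limma). Rpn1, a ribophorin subunit, ran from 11.85 to 11.91 (median 11.89) in homozygous and from 11.84 to 11.995 (median 11.95) in wild-type embryos, at -0.04 ± 0.028 (adjusted p = 0.454), and at -0.04 without wild types 1 and 2.

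The catalytic subunit Stt3a stood at -0.0039 (95% confidence interval -0.06 to 0.06), and Rpn2 at 0.0023 (-0.05 to 0.05). Ddost stood at 0.03 and Tusc3, a subunit with oxidoreductase activity, at -0.02. In the fit without wild types 1 and 2, Stt3a stood at -0.03, Rpn2 at 0.02, Ddost at 0.11 and Tusc3 at -0.01. With arrays centred on their medians all 7 genes of the complex stood below 0, at a median of -0.06, and the direction of Ddost and Rpn2 turned with this scaling.

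None of the 8 genes of trimming and branching passed in limma, and 2, Mogs and Prkcsh, had an unadjusted p under 0.05. Mogs, the glucosidase that removes the outermost glucose, ran from 9.28 to 9.44 (median 9.37) in homozygous and from 9.40 to 9.51 (median 9.44) in wild-type embryos. Its difference was -0.08 ± 0.033 (adjusted p = 0.279), and -0.07 without wild types 1 and 2. Prkcsh, the beta subunit of glucosidase II, which removes the next glucoses, ran from 11.01 to 11.18 (median 11.12) in homozygous and from 10.90 to 11.03 (median 10.96) in wild-type embryos. Homozygous 6, at 11.01, was the 1 homozygous value within the wild-type range, whose upper end was set by wild types 1 and 2 at 11.02 and 11.03; wild types 3 to 6 reached at most 10.97. The difference of 0.14 ± 0.033 had the third smallest p of the members and did not pass (adjusted p = 0.0837). It passed without wild types 1 and 2 (0.17 ± 0.031, adjusted p = 0.0194), with array weights (adjusted p = 0.0221) and among probe sets above the median.

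Ganab, the catalytic subunit of the same enzyme, stood at -0.0023 ± 0.047, and at -0.07 ± 0.026 without wild types 1 and 2 (adjusted p = 0.175 in limma). Prkcsh minus Ganab within an array was 0.12 ± 0.0517 in homozygous and -0.02 ± 0.163 in wild-type embryos (SD, n = 6 each). In wild types 3 to 6 it lay between -0.15 and -0.10, below all homozygous values, and in wild types 1 and 2 it was 0.13 and 0.23. Uggt1, the folding sensor that puts glucose back on unfolded glycoproteins, ran from 10.62 to 10.79 (median 10.69) in homozygous and from 10.49 to 10.70 (median 10.66) in wild-type embryos, at 0.07 ± 0.040 (adjusted p = 0.395 in limma), and at 0.05 without wild types 1 and 2. The Golgi enzymes Man1a1, Man2a1, Mgat1 and Mgat2, which make hybrid and complex chains, stood between -0.03 and 0.01. Without wild types 1 and 2, Mgat1 stood at -0.11, Man1a1 at 0.03, Man2a1 at -0.0017 and Mgat2 at 0.0054. Man1a1 was dimmer than the median probe set.

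Wild-type embryos varied more than homozygous ones in most members. The SD was larger in wild type in 33 of 40 members (82.5%), against 63.7% of all genes, and the median SD over members was 0.0533 in homozygous and 0.0875 in wild-type embryos. Without wild types 1 and 2 it was larger in wild type in 26 of 40 members (65%), against 43.6% of all genes, with a median wild-type SD of 0.0609. With all arrays this held for 7 of 7 oligosaccharyltransferase genes, 5 of 5 of mannose supply and 4 of 8 of trimming and branching. Without the 2 arrays it held for 5 of 7, 5 of 5 and 3 of 8. In chain assembly it held for 10 of 11 genes with and 8 of 11 without those arrays. The dolichol step had 7 of 9 with and 5 of 9 without them. The members were brighter than most genes, and their spread was not compared with that of genes of like brightness. Averaged over the genes of a step, as deviations from the mean of the 12 arrays, chain assembly ran from -0.08 to 0.00 in homozygous and from -0.08 to 0.14 in wild-type embryos. The highest were wild types 1 and 2, at 0.14 and 0.11, and the lowest was wild type 3. The groups overlapped in every step.

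**Figure D5:**
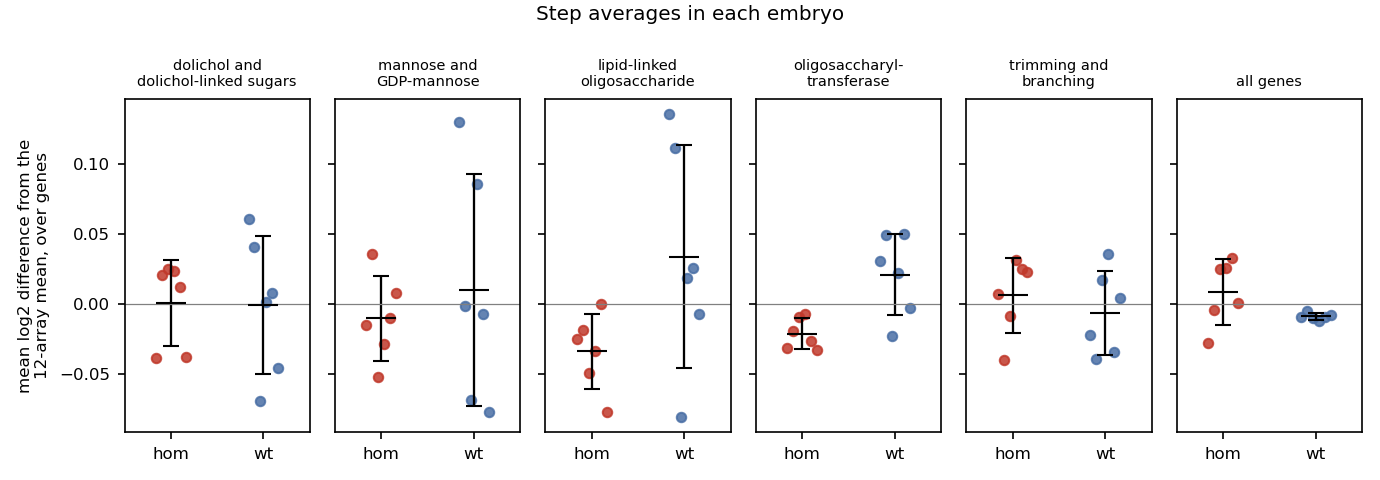
Mean deviation of log2 intensity from the 12-array mean over the genes of each pathway step and over all 14506 genes, for homozygous (left, red) and wild-type embryos (right, blue), with the mean ± SD of the 6 arrays. The groups overlap in all 5 steps, and wild types 1 and 2 are the highest points of chain assembly at 0.14 and 0.11.

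Of 66 other genes around the pathway, 51 were measured; 1 fell, none rose, and 50 did not pass. The 1 that fell, Pigw, an acyltransferase of glycosylphosphatidylinositol anchor synthesis, a pathway that draws mannose from dolichol phosphate, ran from 7.53 to 7.73 (median 7.64) in homozygous and from 7.81 to 7.99 (median 7.87) in wild-type embryos. The groups did not overlap, and the difference was -0.25 ± 0.048 (adjusted p = 0.0413 in limma), and -0.26 without wild types 1 and 2 (adjusted p = 0.0346). Its list, genes of other pathways that draw on dolichol-phosphate mannose, had 15 measured genes with a median of -0.01. Many of them, Pigw included, act at steps that do not themselves use this mannose donor. Its next gene, Dpy19l3, which attaches mannose to tryptophan, ran from 9.52 to 9.68 (median 9.63) in homozygous and from 9.73 to 9.85 (median 9.77) in wild-type embryos, also without overlap, and did not pass (-0.15 ± 0.034, adjusted p = 0.0670); without wild types 1 and 2 it passed at -0.14 (adjusted p = 0.0487).

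Among 20 other N-glycan genes none passed in limma, 1 had an unadjusted p under 0.05 and the median was -0.02. They were led by Magt1, which stands in for Tusc3 in the oligosaccharyltransferase, at -0.17 ± 0.051 (adjusted p = 0.157), and Lman1, a lectin that carries glycoproteins out of the endoplasmic reticulum, at 0.05 ± 0.028. Among 10 genes for other sugar nucleotides none passed and 3 had an unadjusted p under 0.05, with Slc35a2, the UDP-galactose transporter, at -0.11 ± 0.041 and Gne, which starts sialic acid synthesis, at -0.11 ± 0.047. Among 6 genes of isoprenoid supply none passed and 1 had an unadjusted p under 0.05, with Idi1, an isomerase of isoprenoid units, at -0.10 ± 0.033 and Pmvk, a mevalonate pathway kinase, at 0.05 ± 0.033. Leaving out wild types 1 and 2, Gne stood at -0.04, Slc35a2 at -0.09, Magt1 at -0.17, Lman1 at 0.04, Idi1 at -0.10 and Pmvk at 0.04.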

How the data were processed

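RNA of 12 embryos was hybridised to Affymetrix Rat Gene 1.0 ST arrays, 1 each. The values the authors deposited are on a log2 scale, as read from their range, with 1 intensity per probe set. Per the submitters' processing notes, Partek 6.4 and RMA were used; the settings of background correction and normalization are not stated there. Of 29214 probe sets, 15310 had 1 gene symbol, 323 several and 13581 none in the platform annotation. All 40 measured members matched RefSeq (GRCr8) by Entrez number. Short probes compress differences, and RMA can hide a shift of all genes. Depth does not apply; the number of arrays limits precision, with a median standard error of 0.0576.

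Groups came from the labels. Each probe set was fitted with limma 3.58.1 in R 4.3.3 (lmFit, eBayes with intensity trend; genotype only) and adjusted over all probe sets at 0.05. Single genes were also tested by exact permutation of 6 against 6. Members passing, and the 3 members per step with the smallest p, were described in full, and in the other lists those passing and the 2 with the smallest p. The script was tested on simulated data. Members and lists were chosen with earlier results of these data known. Embryos of 1 dam may be alike, and the dam was not used. In bulk tissue, fewer cells of a type and less RNA per cell cannot be told apart. Figures used matplotlib 3.10.9 in Python 3.11.15. Other scalings, filters, variance models, weights and left-out arrays were tried.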

Additional observations from a re-analysis of the deposited data

Results flagged for a closer look

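Among 82 groups of 6 values, for the 40 members and Htt in each genotype, 2 held a value far from the other 5; chance flags about 1 in 20 groups. Dolk was 8.80 in homozygous 1, with the next homozygous value at 9.01. Tusc3 was 10.63 in homozygous 2, with the next homozygous value at 10.70.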

How the results depend on the processing

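The 22 other settings were a replicate block, 2 scalings, a filter on dim probe sets, no intensity trend, array weights, the mean of a gene's probe sets, each array left out and, chosen after seeing the data, cyclic loess, a covariate for how dim probe sets stood against bright ones, and wild types 1 and 2 left out together. Over the whole array 124 probe sets passed, against 18 with the replicate block, 302 with centred arrays, 255 among probe sets above the median, 3 without the trend, 414 with array weights, 6 with the covariate, 582 without wild types 1 and 2, and 4 to 200 with 1 array left out. The split of 66 higher and 58 lower became 35 and 267 with centred arrays, 43 and 77 with quantile-normalized arrays, and 44 and 74 with cyclic loess. The 2 members called became 1 with centred arrays (Alg11), 5 without wild types 1 and 2 (Dpm3, Alg11, Prkcsh, Mpi and Ostc), and 0 with the replicate block, without the trend and with the covariate in limma, where 9 members each had an unadjusted p under 0.05. With array weights Dpm3, Alg11 and Prkcsh passed, and Prkcsh also passed among probe sets above the median. With 1 array left out 0 to 2 members passed. Dpm3 passed in 11 and Alg11 in 12 of the 22 settings, and neither changed direction. Their exact p stayed under 0.05 wherever it was recomputed. With arrays left out it could not do otherwise, since the groups of both genes did not overlap. The median of the oligosaccharyltransferase moved to -0.058 and that of trimming to -0.040 with centred arrays, which lower every difference alike, that of the dolichol step to -0.028 with the covariate, and that of chain assembly to -0.024 without wild types 1 and 2. Of the 40 members, 14 changed sign in at least 1 setting, among them Dpm2. Htt, at 0.30, lost its call with the replicate block (0.30, adjusted p = 0.130), centred arrays (0.26, adjusted p = 0.0555), no trend (0.30, adjusted p = 0.0890) and the covariate (0.29, adjusted p = 0.0914), and ran from 0.26 to 0.32 with 1 array left out. Same-numbered embryos of the 2 groups correlated between -0.08 and 0.26 in their deviations, and 1 of 6 correlated best with its own number. The labels give no pairing, and a weak tie between same-numbered embryos need not show in these correlations. Apart from centred arrays, the causes were not tested.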
